A study of Mus musculus with 4 samples.

Results

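Oxytocin and vasopressin are small peptide hormones that differ little in sequence and share a family of receptors. The genes described are the receptor genes Oxtr and Avpr1a, the peptidase gene Lnpep, and the hormone genes Oxt and Avp. They were taken by symbol from a deposited table of CPM (reads scaled to library size), and all 5 were found among its 24420 gene symbols. They were chosen by name with results of the same comparison in view, namely the fold changes of MUT over WT libraries, in which Lnpep was among the genes called higher. Their differences between genotypes are therefore a description, without a test.

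Testis RNA was sequenced from FVB mice labelled lrrc8a MUT (libraries MUT 1 and MUT 2) and from FVB mice labelled WT (WT 1 and WT 2). The protein of Lrrc8a is an obligatory part of the channel through which swollen cells release anions and osmolytes, and the series concerns reduced activity of that channel and male infertility. Both genotypes were freshly isolated testis of the same strain, with no drug treatment named. The sources used here state neither the kind of mutation nor the age of the mice. They also leave unsaid whether replicate libraries are from different mice, so the spread between libraries may be technical. The labels also name germ cells. Somatic markers were present, such as the Leydig cell gene Cyp17a1 with means of 668.6 CPM in MUT versus 552.8 CPM in WT, so the libraries are described as whole testis. None of 6 epididymis markers reached a mean of 1 CPM.

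The libraries held between 40426400 and 68192776 reads assigned to genes. Lrrc8a was at 13.49 and 15.86 CPM in MUT 1 and MUT 2, and at 18.21 and 17.15 CPM in WT 1 and WT 2. Its log2 difference of -0.26 (SE 0.0998) was not called among all genes (limma adjusted p = 0.218). Expression of Lrrc8a, the gene that the labels name, is thus only a weak check of them. Of 15364 tested genes, 0.749% were called in either direction.

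Oxytocin and vasopressin are made mainly by hypothalamic neurons as parts of larger precursors, and are cut out and amidated before release. Oxtr and Avpr1a couple to Gq proteins, which activate phospholipase C beta, so that calcium is released from internal stores. In the testis oxytocin is known for contraction of the seminiferous tubules, whose wall holds peritubular myoid cells, and both hormones have been studied as regulators of steroid synthesis in Leydig cells. Lnpep encodes a membrane-bound zinc aminopeptidase, called oxytocinase, that removes the first amino acid of both hormones.

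The hormones are shown first because the receptors and the peptidase act on them. The coding bases of the mature hormones, found by translating the GENCODE vM21 transcripts, are given 5′ to 3′, with the codons that specify different amino acids in capitals.
Oxt: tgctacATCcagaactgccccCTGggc
Avp: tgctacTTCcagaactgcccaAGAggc
Each is 27 bases long and 22 bases are identical. Of the 9 codons, 3 differ, and 2 of these, codons 3 and 8 counted from the first codon of the hormone, change the amino acid. Oxt and Avp are neighbours on chromosome 2 of GRCm38, where their 3′ ends lie 3566 bp apart. Oxt runs from 130576173 to 130577054 on the plus strand (ENSMUSG00000027301) and Avp from 130580620 to 130582554 on the minus strand (ENSMUSG00000037727).

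The hormone genes were at the limit of detection in testis of both genotypes. Oxt had 1 and 0 reads in MUT 1 and MUT 2, and 0 reads in both WT libraries. Avp had 0 and 2 reads in MUT 1 and MUT 2, against 4 and 1 reads in WT 1 and WT 2. WT 1, with 4 Avp reads, was the only library in which either hormone gene exceeded 3 reads. A count of 0 allows up to 3 reads, or between 0.0445 CPM in WT 1 and 0.0733 CPM in MUT 2, for counting error only. No difference between genotypes was detectable for the hormone RNAs at this depth. The gene beyond Oxt, Mrps26 of the mitochondrial ribosome, was measured at 9.369 and 8.82 CPM in MUT versus 9.389 and 8.967 CPM in WT. Ubox5, beyond Avp, was at 20.99 and 21.94 CPM in MUT versus 19.91 and 21.93 CPM in WT, so the 2 hormone genes lay near 0 between expressed genes.

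Oxtr, the oxytocin receptor gene, was higher in both MUT libraries than in either WT library. It was measured at 9.062 and 9.773 CPM in MUT 1 and MUT 2, against 6.511 and 5.71 CPM in WT 1 and WT 2. These values rest on 442 and 400 reads in MUT and on 439 and 284 reads in WT; WT 1 was the deepest of the 4 libraries. The exact Poisson 95% intervals, which cover counting error only, ran from 8.237 to 9.947 CPM in MUT 1 and from 8.839 to 10.78 CPM in MUT 2. In WT they ran from 5.916 to 7.15 CPM in WT 1 and from 5.065 to 6.414 CPM in WT 2, so the groups did not overlap even with counting error. Mean levels were 9.417 ± 0.503 CPM in MUT and 6.111 ± 0.567 CPM in WT (SD, n = 2 each). The log2 difference was 0.59 (SE 0.115) on the log2(CPM + 0.5) scale, the 40th largest of the tested genes. As a level per kilobase of exon, Oxtr lay above 28.35% of the tested genes.

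Oxtr lies on the minus strand of chromosome 6, from 112473683 to 112489943 (GRCm38, ENSMUSG00000049112). Its nearest neighbour in the table, the muscle caveolin gene Cav3, ends 811 bp away and was near the limit of detection, at 0.1845 and 0.09773 CPM in MUT versus 0.08899 and 0.1005 CPM in WT. On the other side, the DNA repair gene Rad18 starts 129907 bp away and was at 39.22 and 37.53 CPM in MUT, against 32.5 and 34.42 CPM in WT. Rad18 was thus also higher in both MUT libraries than in both WT libraries, as were 23% of all tested genes. No annotated gene of GENCODE vM21 overlaps Oxtr.

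Lnpep was the member with the larger difference. It was measured at 8.98 and 8.209 CPM in MUT 1 and MUT 2, against 4.465 and 5.328 CPM in WT 1 and WT 2. The reads behind these values were 438 and 336 in MUT and 301 and 265 in WT. The lowest MUT library and the highest WT library were also apart in counting error, with Poisson 95% intervals from 7.355 to 9.136 CPM in MUT 2 and from 4.706 to 6.01 CPM in WT 2. Means were 8.595 ± 0.545 CPM in MUT and 4.896 ± 0.611 CPM in WT (SD, n = 2 each). The log2 difference of 0.76 (SE 0.122) was the 12th largest of the tested genes, while its level per kilobase of exon lay above 8.655% of them.

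Lnpep spans 17521410 to 17625050 on the minus strand of chromosome 17 (GRCm38, ENSMUSG00000023845). Its flanking genes in the table were Lix1, 62023 bp away, and the vomeronasal receptor gene Vmn2r90, 78697 bp away. Lix1 was at 1.845 and 2.175 CPM in MUT versus 2.002 and 2.091 CPM in WT. Vmn2r90 was at 0.246 and 0.171 CPM in MUT versus 0.2522 and 0.2815 CPM in WT. The genotypes overlapped for Lix1, and Vmn2r90 was lower in both MUT libraries, at levels far below 1 CPM. An unconfirmed annotated transcript, Gm49784, lies within Lnpep on the same strand.

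Both genes were among those called higher in the fit across all genes, where 0.482% of genes were called higher and 0.267% lower. Oxtr was not called without WT 2 or after quantile normalization, and neither gene without the filter on low values or without the variance trend. Nothing is read from these calls, since the genes were chosen with the comparison in view. Libraries of the genotypes did not overlap for 45.6% of all tested genes, and 23% were higher in both MUT libraries than in both WT libraries, so with 2 libraries a group the lack of overlap is common.

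Avpr1a, the vasopressin receptor gene of liver and vascular smooth muscle, was weakly expressed. It was measured at 0.9841 and 1.026 CPM in MUT 1 and MUT 2, against 0.7268 and 0.8444 CPM in WT 1 and WT 2. The MUT values were above both WT values, but the Poisson 95% intervals overlapped, from 0.7256 to 1.305 CPM in MUT 1 and from 0.6086 to 1.141 CPM in WT 2. With 90 reads in the MUT libraries together and 91 in the WT libraries, it fell below the filter of 1 CPM in at least 2 libraries and was not tested. Its log2 difference was 0.23, and under a filter of 0.1 CPM the same value had an SE of 0.161. Avpr1a lies on chromosome 10 (plus strand), from 122448499 to 122453452 (ENSMUSG00000020123), inside the antisense gene Gm48877. As the strand setting is unknown here, reads of that gene could be included. The other vasopressin receptor genes were at or near 0. Avpr1b, known from the pituitary, was at 0 and 0.02443 CPM in MUT versus 0 and 0.06032 CPM in WT, and Avpr2, the receptor of the kidney collecting duct, which signals through Gs and cyclic AMP, had 0 CPM in all 4 libraries.

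**Figure D1:**
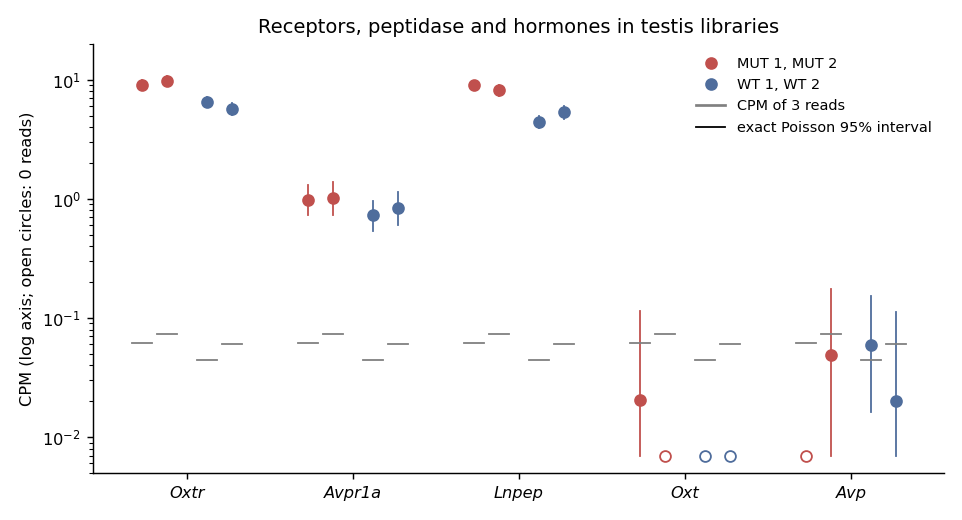
CPM of the 5 genes in each library on a log axis (red, MUT 1 and MUT 2; blue, WT 1 and WT 2), with exact Poisson 95% intervals and, in grey, the CPM that 3 reads are worth in that library; open circles at the bottom are libraries with 0 reads, for which the 3-read line is the limit. Oxtr and Lnpep sit between 4.465 and 9.773 CPM with the MUT points above the WT points, and Avpr1a near 1 CPM. Oxt is below the line of 3 reads in every library, and Avp is above it only in WT 1.

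To compare levels between genes, CPM were divided by the annotated exon length in kilobases. On this scale Oxtr was the highest, at a level of 1.966 CPM per kilobase in MUT and 1.276 in WT. Its exons cover 4.79 kb and those of Lnpep 14.14 kb. Lnpep was at 0.6076 CPM per kilobase in MUT and 0.3462 in WT, and Avpr1a at 0.3765 in MUT and 0.2942 in WT. In MUT both Lnpep libraries, at 0.6349 and 0.5804 CPM per kilobase, were above the Avpr1a libraries at 0.3686 and 0.3843. In WT these neighbours in the order overlapped, with Lnpep at 0.3157 and 0.3767 and Avpr1a at 0.2722 and 0.3163 CPM per kilobase. The level of Oxtr per kilobase was 5.13 and 5.31 times that of Avpr1a in MUT, and 4.99 and 3.77 times in WT. Relative to Lnpep it was 2.98 and 3.52 times as high in MUT, and 4.31 and 3.16 times in WT, so these ratios overlapped between genotypes.

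The promoters of the genes whose MUT and WT libraries were farthest apart, Lnpep and Oxtr, are shown to let their composition be compared. The bases are from RefSeq on GRCm38.p6, 250 before to 50 after the annotated start, 5′ to 3′ on the gene's strand. The RefSeq starts, 17624489 for Lnpep and 112489825 for Oxtr, lie inside the GENCODE genes given above, which begin at 17625050 and 112489943, so the Lnpep window is wholly within the GENCODE gene and the Oxtr window partly. Capitals mark matches, on either strand, to the TATA box (TATAAA), the GC box (GGGCGG), the CCAAT box by its name's letters, the E-box (CACGTG) or a nuclear receptor half-site (AGGTCA).
Lnpep (chr17:17624440-17624739, minus strand): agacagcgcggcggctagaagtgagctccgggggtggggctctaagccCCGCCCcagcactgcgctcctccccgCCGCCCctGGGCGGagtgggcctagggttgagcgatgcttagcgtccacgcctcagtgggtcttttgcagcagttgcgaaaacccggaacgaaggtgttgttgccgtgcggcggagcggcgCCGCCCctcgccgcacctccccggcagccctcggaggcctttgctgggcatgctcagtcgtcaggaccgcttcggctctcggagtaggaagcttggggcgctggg
Oxtr (chr6:112489776-112490075, minus strand): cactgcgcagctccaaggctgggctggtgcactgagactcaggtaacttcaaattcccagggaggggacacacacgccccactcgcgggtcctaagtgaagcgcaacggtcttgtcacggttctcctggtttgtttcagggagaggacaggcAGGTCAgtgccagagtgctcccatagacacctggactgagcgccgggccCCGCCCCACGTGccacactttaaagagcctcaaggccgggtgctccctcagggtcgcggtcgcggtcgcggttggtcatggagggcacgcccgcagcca
The Lnpep window holds 4 GC boxes and none of the other motifs, with 69.3% G or C and 30 CG dinucleotides. The Oxtr window holds 1 GC box directly followed by 1 E-box, and 1 half-site, with 63.7% G or C and 20 CG dinucleotides. Among 32851 promoter windows of the same length, 35.7% hold a GC box, 7.15% an E-box, 16.3% the half-site, 13.6% the TATA box and 37.4% a CCAAT box. The GC box is thus the only one of these motifs in both windows, and a common one. A match is a string of letters and says nothing of binding.

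Oxtr and Lnpep differed in which library of each genotype was the higher one. Oxtr was higher in WT 1 than in WT 2 and in MUT 2 than in MUT 1, and Lnpep the reverse. Within each genotype the Poisson 95% intervals of the libraries overlapped for both genes, so these orders may be counting error. With profiles centred on their own mean on the log2(CPM + 0.5) scale, the distance between Lnpep and Oxtr was 0.37. With predicted and clone names left out, Oxtr ranked 89th of the tested genes in closeness to Lnpep, and Lnpep 553rd in closeness to Oxtr. The closest to Lnpep were Nrk, a kinase gene, at a distance of 0.11, Pclo, a presynaptic scaffold gene, and the noncoding RNA gene Xist. Nrk was at 3.178 and 3.079 CPM in MUT versus 1.646 and 1.91 CPM in WT. The closest to Oxtr were Trim56, Arhgdib and Ndufaf6, an assembly factor gene of respiratory complex I. Arhgdib was at 6.95 and 8.16 CPM in MUT versus 5.132 and 4.624 CPM in WT. With 4 libraries many genes have near-identical profiles, so the likeness is a description only.

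Genes acting with these receptors and with the peptidase did not show differences that passed the test. Across 8 lists with tested members, limma called 0 of 81 genes higher or lower, against 0.749% of all tested genes. At an unadjusted p under 0.05 there were 12 of the 81 (14.8%), against 14.7% of all tested genes. edgeR and DESeq2 on recovered reads likewise called 0 of the 81. At an unadjusted p under 0.05, edgeR had 14 of the 81, against 2271 of all 15364 tested genes. DESeq2 had 6 of the 81, against 1542 of all 15364. The median log2 difference was 0.0217 over these genes and -0.00159 over all tested genes. Their log2 differences lay between -0.297 and 0.423, the highest being that of Lvrn, an aminopeptidase gene near 1 CPM. The pseudocount of 0.5 compresses differences at that level: the ratio of mean CPM, MUT over WT, was 1.539 for Lvrn, 1.541 for Oxtr and 1.755 for Lnpep.

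Of 13 G protein and phospholipase C beta genes, 9 had a log2 difference above 0 and none was called (median 0.0174). Gnaq, an alpha subunit that Oxtr and Avpr1a use, was at 12.9 and 11.19 CPM in MUT, against 9.241 and 10.68 CPM in WT (log2 difference 0.26, SE 0.11, limma adjusted p = 0.273). Plcb1, a phospholipase C that Gq activates, was at 7.217 and 7.159 CPM in MUT versus 5.162 and 6.353 CPM in WT (0.30, SE 0.123, adjusted p = 0.253). Both were above 0 without passing the threshold. Gnas, the stimulatory alpha subunit and the gene of the list with the highest CPM, was at 119.4 and 130.5 CPM in MUT versus 125 and 111.5 CPM in WT, and the genotypes overlapped.

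Among 14 genes of calcium release and protein kinase C, none was called and the median log2 difference was 0.0323. Itpr1, the receptor through which inositol trisphosphate releases calcium, was at 47.01 and 42.56 CPM in MUT versus 37.76 and 38.42 CPM in WT (log2 difference 0.23, SE 0.0794, limma adjusted p = 0.181). Ryr1, a calcium release channel best known from skeletal muscle, lay the other way, at 42.03 and 33.69 CPM in MUT versus 41.16 and 46.54 CPM in WT, with overlapping libraries. Stim1, the calcium sensor of the endoplasmic reticulum, had a log2 difference of 0.09, and the calcium pump gene Atp2a2, with the highest CPM, one of 0.03.

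A further list of 14 genes covers the damping of receptor signals and includes G protein regulators and caveolins. Of these, 13 were tested, none was called and 6 lay above 0. Adrbk2, a kinase that phosphorylates active receptors, was at 74.18 and 75.62 CPM in MUT, against 65.44 and 67.57 CPM in WT (log2 difference 0.17, SE 0.0702, limma adjusted p = 0.261). Grk5, of the same kinase family, had a log2 difference of 0.19 and the G protein regulator gene Rgs5, a pericyte gene, one of -0.27, both without a call. Grk4, with the highest CPM of the list, was at 127.5 and 118.6 CPM in MUT versus 122.3 and 131.3 CPM in WT.

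In smooth muscle contraction, which oxytocin drives in the uterus, none of 13 genes was called (median log2 difference 0.023). Rock2, a kinase that raises the calcium sensitivity of contraction, had the smallest p of all these lists. It was at 28.74 and 29.91 CPM in MUT, against 22.59 and 24.25 CPM in WT (log2 difference 0.32, SE 0.0847, limma adjusted p = 0.0848). Ppp1r12a, a regulatory subunit of myosin phosphatase, was at 49.22 and 43.07 CPM in MUT versus 37.59 and 40.19 CPM in WT (0.24, SE 0.0831, adjusted p = 0.178). Neither passed the threshold. Cacna1d, a voltage-gated calcium channel gene, lay below 0 (-0.19).

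The M1 aminopeptidases are the family of zinc enzymes to which Lnpep belongs. Of 9 other tested members, 4 lay above 0 and 5 below, and none was called (median log2 difference -0.0634). Lvrn, named laeverin, was at 1.23 and 1.222 CPM in MUT versus 0.9493 and 0.6434 CPM in WT (log2 difference 0.42, SE 0.189, limma adjusted p = 0.304). Npepps, the puromycin-sensitive aminopeptidase, with the highest CPM, was at 110.9 and 100.3 CPM in MUT, against 106.8 and 113.7 CPM in WT. Rnpep, aminopeptidase B, and Rnpepl1 had log2 differences of -0.16 and -0.13. The other peptidases that cut these hormones were not called either. Prep, prolyl endopeptidase, was at 13.08 and 12.88 CPM in MUT versus 13.3 and 11.9 CPM in WT, and Mme, neprilysin, at 8.693 and 9.04 CPM in MUT versus 6.363 and 8.967 CPM in WT.

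In fat and muscle, the Lnpep protein is stored in vesicles with the glucose transporter Slc2a4. Of 13 genes of these vesicles, 12 were tested and none was called (median log2 difference 0.0422). Slc2a4 itself was below the filter, at 0.9841 and 0.6597 CPM in MUT versus 1.023 and 0.6836 CPM in WT. Tnks2, a tankyrase, was at 36.53 and 34.03 CPM in MUT, against 28.73 and 31.73 CPM in WT (log2 difference 0.22, SE 0.084, limma adjusted p = 0.223). Aspscr1, a tether of these vesicles, lay below 0, at 240 and 252.2 CPM in MUT versus 274.1 and 276.2 CPM in WT (-0.16, SE 0.0616, adjusted p = 0.224). The receptor gene Lrp1 had a log2 difference of 0.15, also without a call.

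All 5 tested genes of prohormone processing had a log2 difference below 0, with a median of -0.088, and none was called. That of Cpe was only -0.0125 (SE 0.0703). Of all 15364 tested genes, 7748 lay below 0. The 5 genes were measured although the hormone genes were near 0. Cpe, a carboxypeptidase, was at 83.52 and 80.85 CPM in MUT versus 80.21 and 85.67 CPM in WT, and Pam, the amidating enzyme, at 26.71 and 24.9 CPM in MUT versus 26.8 and 27.58 CPM in WT. Pcsk2, a prohormone convertase, and Pcsk1n, an inhibitor of its relative, had log2 differences of -0.10 and -0.21.

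**Figure D2:**
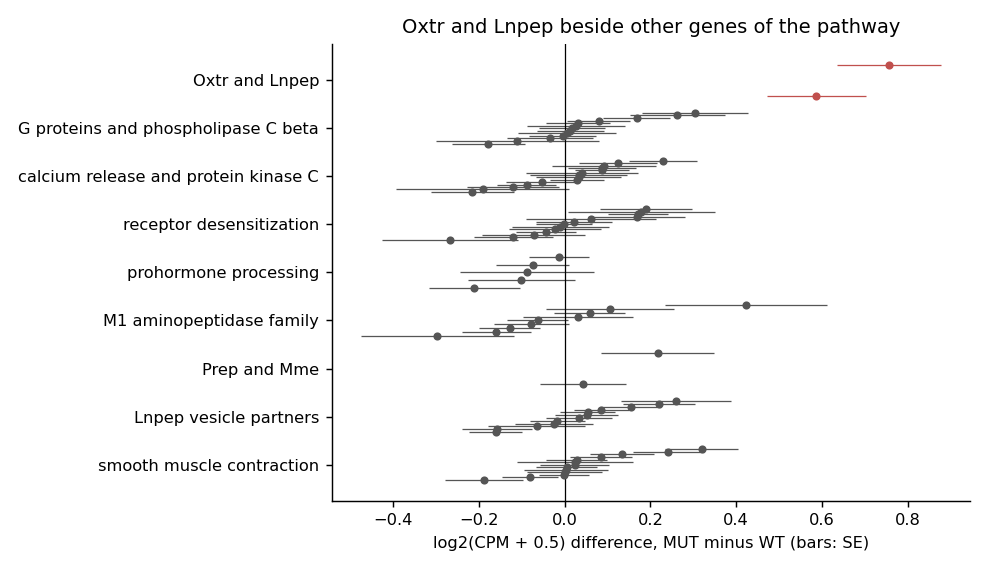
Differences in log2(CPM + 0.5), MUT minus WT, of Oxtr and Lnpep (red) and of the tested genes of each list (grey, 1 point a gene, ordered within the list), with standard errors as bars. Oxtr at 0.59 and Lnpep at 0.76 lie to the right of the grey points, which run from -0.297 to 0.423; the highest grey point is Lvrn, whose ratio of mean CPM of 1.539 is close to the 1.541 of Oxtr.

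Markers of the somatic cells in which these genes have been studied also differed in level between the libraries. In bulk tissue, a change in the number of cells of a type and a change in the RNA of each cell cannot be told apart. The summed CPM of 8 Leydig markers was 1164 and 1210 in MUT 1 and MUT 2, against 1019 and 997.4 in WT 1 and WT 2. Of these, 1 was called higher, Cyp17a1, which made up between 53.4% and 56.5% of the sum in each library. Star, which carries cholesterol into mitochondria, overlapped between genotypes. The markers named next were chosen after their values were seen. Insl3 had a lower mean in MUT, at 30.22 and 20.21 CPM in MUT versus 23.26 and 39.17 CPM in WT, with overlap. Hsd3b6 also overlapped, with a log2 difference of -0.007. Hsd3b1, Hsd17b3 and Lhcgr were higher in both MUT libraries than in both WT libraries, without a call. Their log2 differences were 0.29, 0.29 and 0.33. The 6 peritubular myoid markers lay the other way, with sums of 369.3 and 389.7 CPM in MUT and 419.8 and 406.3 CPM in WT, none of them called. Each of the 6 had a log2 difference below 0, from -0.49 for Des to -0.04 for Tagln, as did 7748 of all 15364 tested genes. Actg2 alone, with group means of 279.8 (MUT) and 299.3 CPM (WT), made up most of these sums. Which cells its RNA came from was not tested. The 8 Sertoli markers summed to 998.7 and 1031 CPM in MUT and to 994.3 and 941 CPM in WT. Every marker of these 3 lists had a mean of at least 1 CPM. Summed spermatogonial markers were at 45.37 and 46.06 CPM in MUT versus 35.26 and 39.06 CPM in WT, with Kit called higher, and summed macrophage markers at 64.62 and 63.74 CPM in MUT versus 56.63 and 58.37 CPM in WT. The sums of spermatocyte, spermatid, endothelial and erythroid markers overlapped between genotypes; the erythroid sum is Alas2 alone, as the 4 globin genes of that list were listed at 0 in every library. The part of these markers in the differences of Oxtr and Lnpep was not tested.

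Oxtr and Lnpep were also set against the sums of the 5 lists whose values are given. Per 1000 CPM of Leydig markers, Oxtr was at 7.79 and 8.07 CPM in MUT versus 6.39 and 5.72 CPM in WT, and Lnpep at 7.72 and 6.78 CPM in MUT versus 4.38 and 5.34 CPM in WT. The log2 ratios of these means, MUT over WT, were 0.39 for Oxtr and 0.58 for Lnpep. Per 1000 CPM of peritubular myoid markers they were 0.75 and 0.93, as those sums were lower in MUT. Per 1000 CPM of spermatogonial markers they were 0.32 for Oxtr, at 200 and 212 CPM in MUT versus 185 and 146 CPM in WT, and 0.52 for Lnpep. Per 1000 CPM of macrophage markers they were 0.46 and 0.65. Both genes were higher in both MUT libraries than in both WT libraries against each of the 5 sums. In CPM without such scaling, the same held for 23% of all tested genes, and the share against the sums was not computed. Most of the Leydig, peritubular myoid, Sertoli and macrophage sums came from Cyp17a1, Actg2, Clu and Mrc1, respectively. Whether the cell types of these markers account for the differences was not tested. Avpr1a per 1000 CPM of Leydig markers was at 0.846 and 0.848 CPM in MUT versus 0.713 and 0.847 CPM in WT, so WT 2 lay between the MUT libraries. Against each of the other sums, Avpr1a too was higher in both MUT libraries than in both WT libraries. Its log2 ratios there ran from 0.0583 for the spermatogonial list to 0.476 for the peritubular myoid list. Which cells hold the RNA of these genes was not tested.

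**Figure D3:**
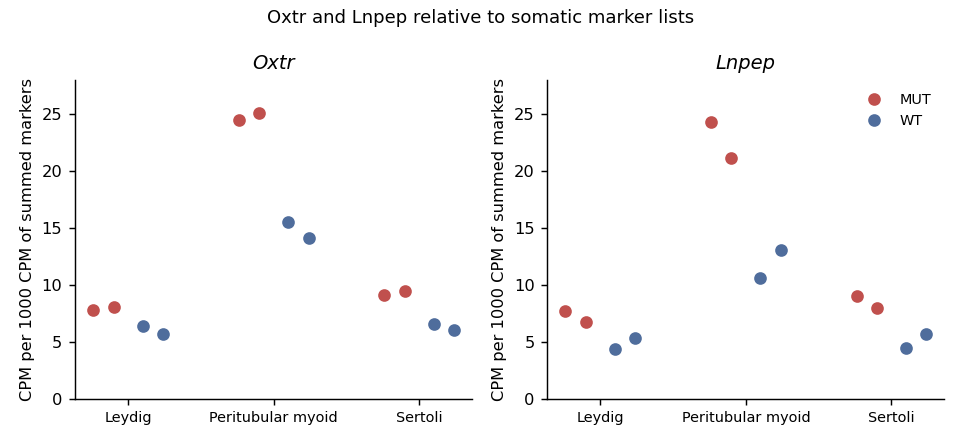
CPM of Oxtr (left) and Lnpep (right) per 1000 CPM of summed Leydig, peritubular myoid or Sertoli markers in each library (red, MUT; blue, WT). For both genes and all 3 lists the MUT points lie above the WT points, with the least distance for the Leydig list. The peritubular myoid sum is mostly Actg2, whose cells of origin were not tested.

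Length and base composition of the transcripts differed between the 2 genes. The longest annotated transcript of Lnpep has 12052 bases and 40.27% G or C, and that of Oxtr 4704 bases and 52.06%, while the medians of the tested genes were 3207 bases and 49.6%. After removal of library trends along GC content and length of transcripts, the log2 difference was 0.65 (SE 0.11) for Lnpep and 0.57 (SE 0.109) for Oxtr. Over 17 alternative ways of processing, Lnpep ranged from 0.641 to 0.872 and Oxtr from 0.499 to 0.674. The lowest value of each came from leaving out 1 WT library, WT 1 for Lnpep and WT 2 for Oxtr.

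**Figure D4:**
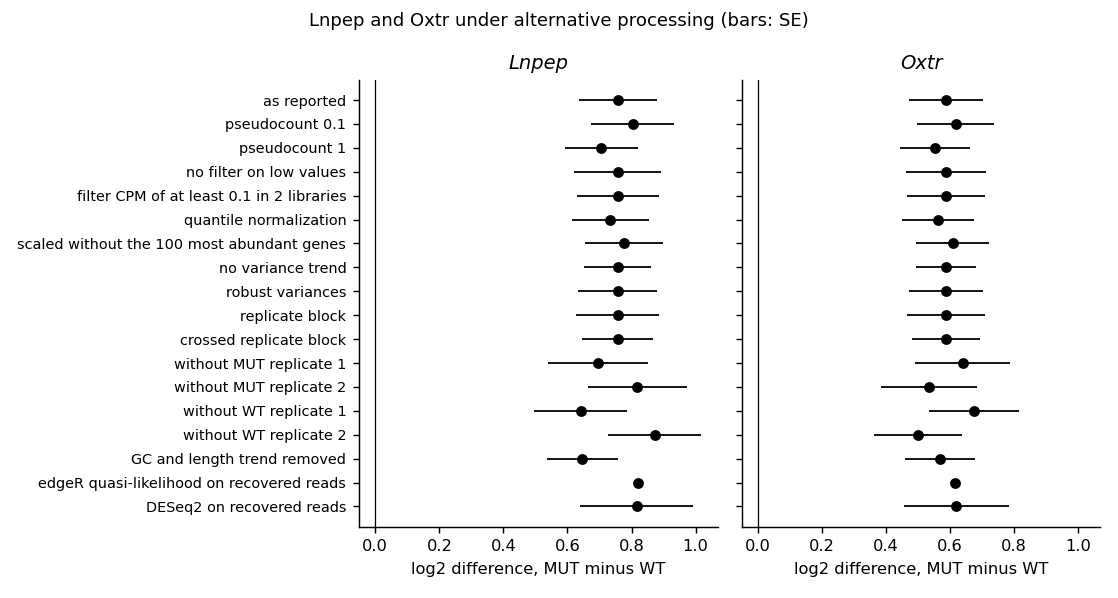
Log2 differences, MUT minus WT, of Lnpep (left) and Oxtr (right) as reported and under each alternative, with standard errors as bars (none is given by edgeR). Lnpep stays between 0.641 and 0.872 and Oxtr between 0.499 and 0.674.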

How the data were processed

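RNA of 4 mouse testis libraries was measured. Per the labels' protocols, Trizol extraction and DNase I treatment were followed by the Illumina TruSeq stranded mRNA kit. The authors deposited CPM values. The build mm10 and the tools edgeR 3.8.6, HTSeq 0.6.0 and TopHat2 2.0.10, per the submitters' processing notes, are named, without stated roles or strand setting. Dividing a column by its lowest non-zero value gave whole reads for 100% of values (tolerance 0.001).

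Genes reaching 1 CPM in 2 or more libraries were tested on log2(CPM + 0.5), which understates the change of low genes, with limma 3.58.1 (eBayes with trend) in R 4.3.3, two-sided, Benjamini-Hochberg adjusted over all 15364 tested genes, and called under 0.05. The median SE was 0.0948. Members and gene lists were chosen with earlier results of these data known. Named genes were the members, called genes, the 3 smallest p-values and the gene of highest CPM of each list, the markers of highest CPM, neighbours, and the 3 nearest profiles. Gene positions, exon lengths and transcripts were from GENCODE vM21 (GRCm38), which named 23376 symbols. edgeR 4.0.16 and DESeq2 1.42.0 were run on recovered reads as alternatives. The steps were tested on simulated reads. No result met the criteria for a closer look, which need at least 4 samples a group or a further contrast. One named gene is not reported here.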

Additional observations from a re-analysis of the deposited data

How the results depend on the processing

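Lnpep and Oxtr kept their direction in all 17 alternatives. Changing only the filter, the variance model or the block leaves the log2 difference as it was. Leaving out 1 library could not reverse it either, as the MUT and WT libraries of both genes did not overlap. Such settings are thus no check of direction. The tested pathway genes gave 0 calls in each setting that kept all 4 libraries. Lnpep was not called without the filter on low values or without the variance trend, where its log2 difference stayed 0.76. Oxtr was not called in these settings (0.59), after quantile normalization (0.56) or without WT 2 (0.50). With single libraries left out, Lnpep ranged from 0.64 (without WT 1) to 0.87 (without WT 2) and Oxtr from 0.50 (without WT 2) to 0.67 (without WT 1). Calls over all genes, 74 higher and 41 lower in MUT, were 7 and 4 without the filter, 35 and 18 after quantile normalization, 113 and 37 when scaled without the 100 most abundant genes, 5 and 2 without the trend, 42 and 29 with the GC and length trend removed, and 94 and 72 by DESeq2. The share of higher calls was 64.3% as reported and 75.3% when scaled without the abundant genes. Leaving out single libraries gave 67 (without MUT 1) to 133 (without WT 1) higher and 42 (without WT 2) to 177 (without WT 1) lower, and 86 lower without MUT 2. The cause was not tested. A replicate block gave 57 and 31 calls, with both genes still called. The deviations of same-numbered libraries correlated at -0.134 over genes. With 2 libraries per genotype, this value cannot decide whether the numbers pair the libraries. The crossed block gave 131 and 104 calls. The crossed block and the GC and length correction were chosen after seeing the data. Of 495 other values of named genes under alternatives, 490 moved by less than the spread between libraries or not at all, and 5 by more. The 490 include values under a changed filter, variance model or block, which could not move. At 3 reads a library, depth limits the hormone genes.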
